A study of Mus musculus with 9 samples.

Results

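The proteasome genes of mouse pancreatic islets were followed over 3 glucose concentrations. They were taken as the protein-coding genes whose symbol begins with Psma, Psmb, Psmc, Psmd, Psme, Psmf or Psmg followed by a digit, which gave 50 of the 22048 genes in the deposited table. Of these, 14 encode the constitutive 20S core, 17 the 19S cap, 3 the catalytic subunits of the immunoproteasome, 4 the activators PA28 and PA200, 1 the inhibitor PI31 and 7 assembly chaperones. The remaining 4 were the testis subunit Psma8, the thymus subunit Psmb11, the Psme2 copy Psme2b and Psmc3ip, which carries the symbol but encodes a meiotic recombination factor and no subunit.

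Islets of ICR mice, an outbred stock given in the labels as the genotype, were cultured for 3 days in RPMI medium at its usual 11.8 mM glucose, the control, or at 20 or 35 mM. The design text calls these concentrations normoglycemic, hyperglycemic and extremely hyperglycemic. Each had 3 libraries. The islets came from 9 mice, but the labels do not say which mouse gave which library, so a p-value here sets a difference against the spread of these samples alone, and that spread may be technical. The labels give neither age nor sex. RNA was sequenced by CEL-Seq2, which reads and barcodes transcripts at their 3′ end, and the 9 libraries held 3228648 to 4559561 gene counts. Hormone transcripts (Ins1, Ins2, Gcg, Sst, Ppy and Iapp) made up 53.9% to 61.5% of these counts, and acinar markers 0.298% to 1.11%. Proteasome genes made up 0.271% to 0.333%, or 10025 to 13004 counts per library.

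The proteasome is the protease that degrades proteins tagged with ubiquitin. Its barrel, the 20S core, is built of alpha rings that gate the entry and beta rings that hold the proteolytic sites, and the 19S cap recognises, unfolds and feeds in the substrate. Under interferon the catalytic beta subunits are replaced by immunoproteasome counterparts, which change the peptides made for antigen presentation. Beta cells make secreted protein in large amounts and remove misfolded proinsulin through the proteasome.

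No proteasome gene passed the test for a change with glucose. All 50 genes had at least 1 count, and 44 had enough counts to be tested. At 35 against 11.8 mM glucose 0 of 44 passed an adjusted p of 0.05 (edgeR's quasi-likelihood test, adjusted by Benjamini-Hochberg over 9739 genes), where 0.863% of all tested genes passed. At 20 against 11.8 mM 0 of 44 passed, where 0.185% of all genes did, and at 35 against 20 mM 0 of 44, where 0.0308% did. A test for any difference among the 3 concentrations also called 0 of 44, against 0.606% of all genes, and had 3 members at an unadjusted p under 0.05, against 9.05% of all genes. DESeq2 called 0 members in each of these as well. Since so few of all genes passed, 0 of 44 does not set the members apart from them. At an unadjusted p under 0.05 there were 3 members at 35 against 11.8 mM (10.5% of all genes), 3 at 20 against 11.8 mM (7.97% of all genes) and 2 at 35 against 20 mM (5.29% of all genes). The lowest adjusted p of any member was 0.242 at 35 against 11.8 mM, 0.364 at 20 against 11.8 mM and 0.932 at 35 against 20 mM, by edgeR's quasi-likelihood test.

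The fold changes of the 44 tested members spanned -0.68 to 0.49 on the log2 scale at 35 against 11.8 mM, -0.58 to 0.56 at 20 against 11.8 mM and -0.45 to 0.71 at 35 against 20 mM. For 30 of the 44 tested members the 95% interval of the fold change lay within 1.5-fold in either direction, in each of the 3 comparisons. It lay within 2-fold for 41, 41 and 40 of them, so that a 2-fold change lay outside the interval for most members. The median standard error was 0.17 log2 units for the members and 0.25 for all tested genes.

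**Figure D1:**
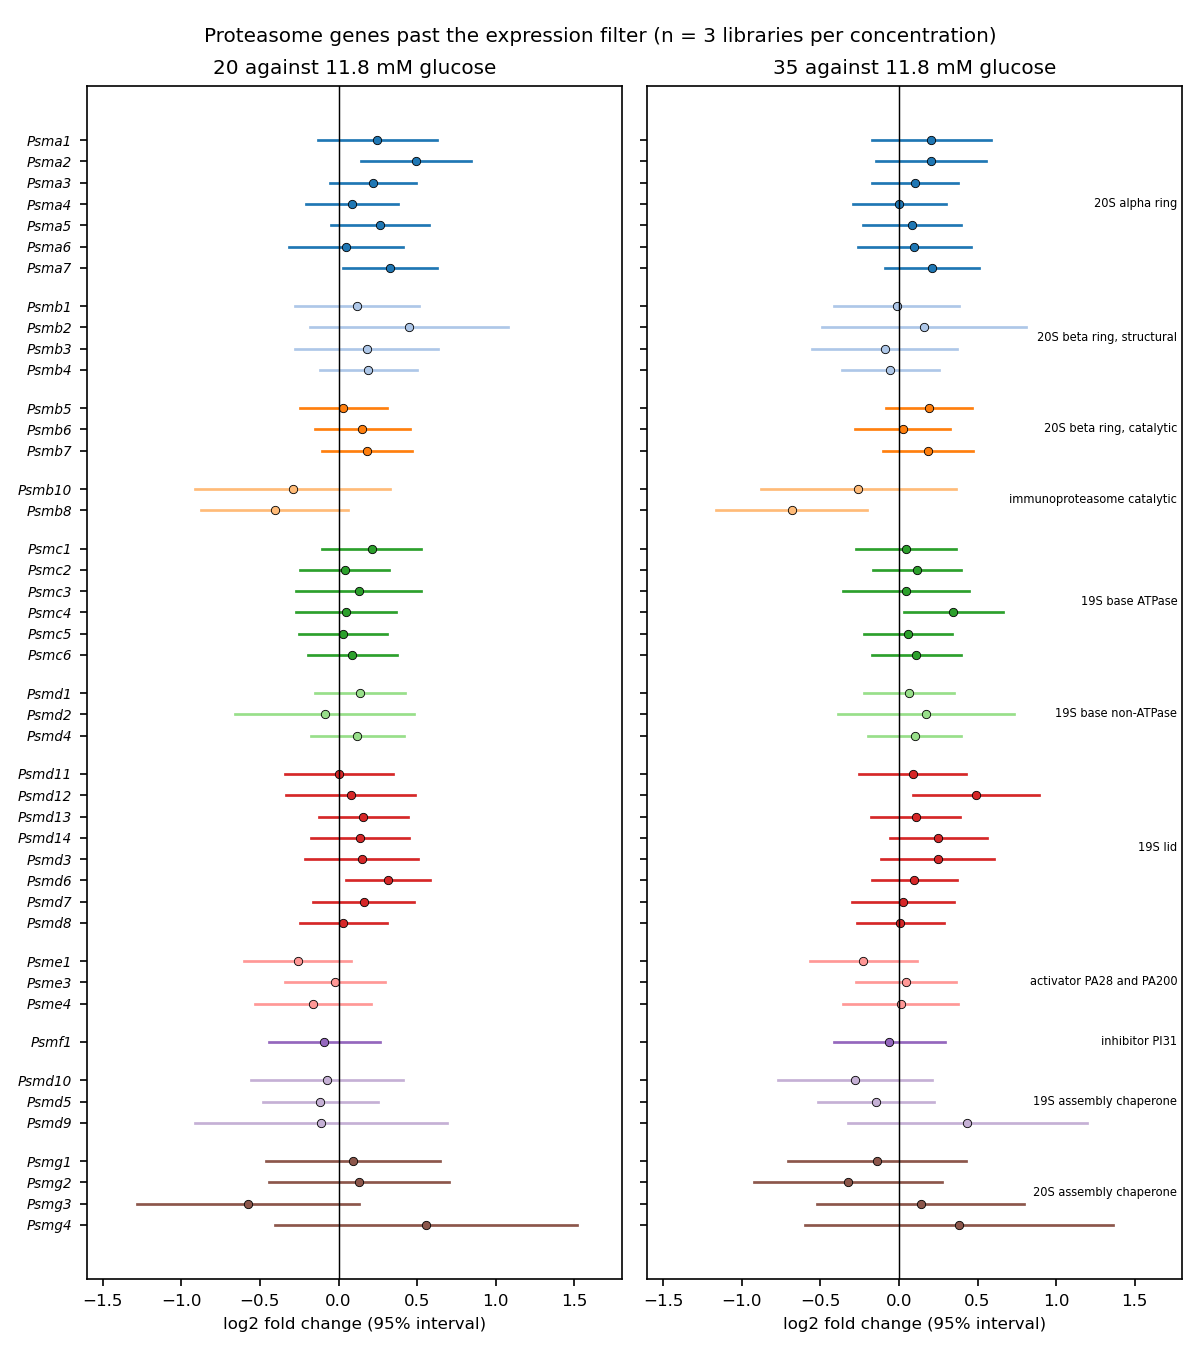
Log2 fold change of the 44 tested proteasome genes at 20 against 11.8 mM glucose (left) and at 35 against 11.8 mM glucose (right), with its 95% interval as a horizontal bar, grouped and coloured by class. The points lie between -0.68 and 0.56. Both panels share the 3 libraries at 11.8 mM.

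More members had a positive than a negative fold change against 11.8 mM. At 35 mM 33 of 44 were above 0, where 49.6% of all tested genes were, and at 20 mM 33 of 44, where 49.8% of all genes were. The median log2 fold change of the tested members was 0.08 at 35 mM and 0.11 at 20 mM, beside a median over all tested genes of -0.003 and -0.002. Both comparisons use the same 11.8 mM libraries. At 35 against 20 mM, 19 of 44 members were positive and their median was -0.04. Among the 3 control libraries, 11.8 mM replicate 1 had the lowest 20S core sum of the 9 libraries. Without it 24 of 44 members were positive at 35 mM with a median of 0.02, and 27 of 44 at 20 mM with a median of 0.06.

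Groups without overlap were no more common among the members than among all genes. At 35 against 11.8 mM the libraries of 5 members did not overlap (11.4%), 3 higher and 2 lower, where 14.9% of all tested genes had no overlap (8.22% higher, 6.69% lower). At 20 against 11.8 mM it was 3 members, all higher (6.82%), against 12.8% of all genes (6.79% higher, 6.04% lower). At 35 against 20 mM it was 5 members (11.4%), 3 higher and 2 lower, against 11.9% of all genes (6.15% higher, 5.76% lower).

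The 20S core was summed over its 14 genes as counts scaled by library size and composition (CPM). The sums were 1199, 1593 and 1525 CPM at 11.8 mM, 1736, 1683 and 1437 CPM at 20 mM, and 1424, 1563 and 1582 CPM at 35 mM. The concentrations overlapped, and the lowest library was a control. The mean was 1523 ± 86.7 CPM at 35 mM and 1619 ± 159 CPM at 20 mM, beside 1439 ± 210 CPM at 11.8 mM (SD, n = 3 each). The ratio of means was 1.06 at 35 mM and 1.12 at 20 mM over 11.8 mM; without 11.8 mM replicate 1 it was 0.977 and 1.04. Of the 14 core genes 11 had a positive fold change at 35 mM and 14 at 20 mM, with medians of 0.10 and 0.18 log2 units. Without that library 8 and 11 were positive. Without 35 mM replicate 3 it was 8 of 14 at 35 mM, with a median of 0.04.

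**Figure D2:**
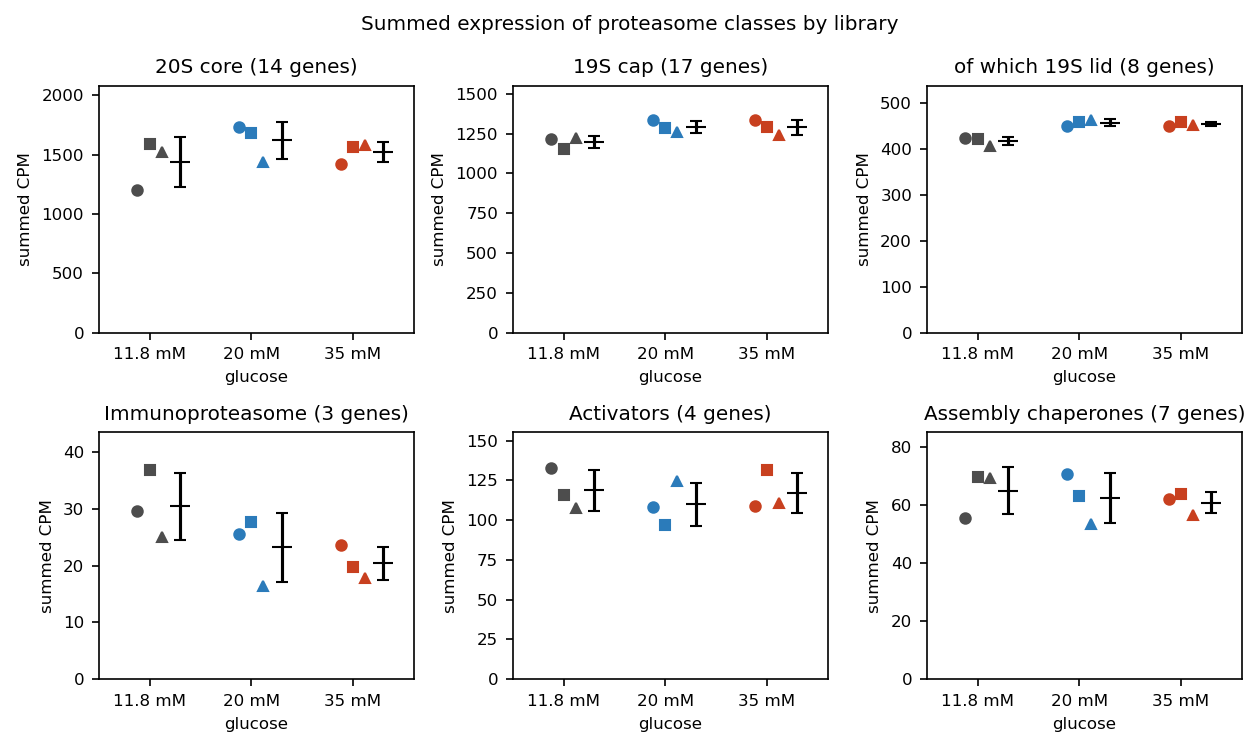
Summed CPM of the proteasome classes in each library at 11.8 (grey), 20 (blue) and 35 mM glucose (red), with circles, squares and triangles for replicates 1, 2 and 3 and the mean ± SD (n = 3) in black beside them. The 20S core overlaps across concentrations, the 19S lid at 11.8 mM lies below the other libraries, and the immunoproteasome sums at 35 mM lie below those at 11.8 mM.

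Within the alpha ring, whose 7 subunits form the gated entry of the core, Psma2 had the smallest p at 20 mM. It had 21.1, 24.1 and 22.7 CPM at 11.8 mM, 35.4, 32.3 and 27.9 CPM at 20 mM, and 26.8, 24.7 and 26.7 CPM at 35 mM. All 3 groups were apart, with 20 mM highest and 35 mM between, but the gap of 35 mM to the controls was narrow (24.7 beside 24.1 CPM). Its log2 fold change was 0.49 ± 0.17 (SE) at 20 against 11.8 mM, with an adjusted p of 0.364, and 0.20 ± 0.17 at 35 against 11.8 mM, with an adjusted p of 0.769 (edgeR's quasi-likelihood test). Among the tested members, Psma2 alone had no overlap in both comparisons with 11.8 mM, which use the same control libraries. How many of all tested genes did so was not counted, so this does not set Psma2 apart.

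Psma7, another alpha subunit, had 50.4, 68.7 and 53.0 CPM at 11.8 mM, 81.9, 68.2 and 66.6 CPM at 20 mM, and 65.2, 65.0 and 69.3 CPM at 35 mM. Replicate 2 at 11.8 mM overlapped both other groups. The log2 fold change was 0.33 ± 0.15 at 20 mM (adjusted p 0.564, edgeR's quasi-likelihood test) and 0.21 ± 0.15 at 35 mM. Psma3 was the most abundant alpha gene by counts, with a mean of 269 CPM over the 9 libraries, and Psma6 the least, with 23.8 CPM. Their log2 fold changes at 35 against 11.8 mM were both 0.10.

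The structural subunits of the beta ring, Psmb1 to Psmb4, have no proteolytic site. All 4 had a positive fold change at 20 mM and 1 of 4 at 35 mM, with medians of 0.18 and -0.03. Psmb4 was the most abundant, with 153, 252 and 220.2 CPM at 11.8 mM, 256, 252 and 206 CPM at 20 mM, and 197, 219 and 186 CPM at 35 mM. The lowest value was again in 11.8 mM replicate 1, and the groups overlapped. Psmb2, the least abundant at 8.02 CPM over all libraries, had log2 fold changes of 0.45 ± 0.31 at 20 mM and 0.16 ± 0.32 at 35 mM. Psmb3 had -0.09 ± 0.22 at 35 mM.

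Psmb5, Psmb6 and Psmb7 encode the constitutive catalytic subunits, known for chymotrypsin-like, caspase-like and trypsin-like activity in that order. Psmb5 had 203, 226 and 192 CPM at 11.8 mM, 235, 195 and 205 CPM at 20 mM, and 197, 255 and 258 CPM at 35 mM. Psmb6 had 87.7, 131 and 122 CPM at 11.8 mM, 132, 141 and 104 CPM at 20 mM, and 121, 112 and 112 CPM at 35 mM. Psmb7 had 141, 148 and 192 CPM at 11.8 mM, 201, 190.3 and 153 CPM at 20 mM, and 175, 186 and 185 CPM at 35 mM. Every pair of groups overlapped for each of the 3 genes. The log2 fold changes at 35 against 11.8 mM were 0.19 ± 0.14 for Psmb5, 0.02 ± 0.15 for Psmb6 and 0.18 ± 0.14 for Psmb7, and at 20 against 11.8 mM 0.03, 0.15 and 0.18.

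When the proteasome is inhibited, the transcription factor NRF1, encoded by Nfe2l1, raises most subunit genes together through antioxidant response elements. The core of that element, TGACNNNGC, was searched on both strands in the 250 bases before the start of each gene. Among the catalytic genes Psmb5 and Psmb6 held it, and their windows are shown because NRF1 is the known route to joint induction of the constitutive catalytic genes. They are RefSeq sequences of GRCm38.p6, with the match in capitals. For Psmb5 this is the minus strand of chr14:54618023-54618245, ending before the first annotated exon base, and for Psmb6 the plus strand of chr11:70525107-70525356.
Psmb5: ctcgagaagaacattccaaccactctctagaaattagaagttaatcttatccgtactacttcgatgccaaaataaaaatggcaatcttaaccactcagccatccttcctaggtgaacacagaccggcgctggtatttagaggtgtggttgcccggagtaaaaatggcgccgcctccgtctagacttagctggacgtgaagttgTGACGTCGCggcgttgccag
Psmb6: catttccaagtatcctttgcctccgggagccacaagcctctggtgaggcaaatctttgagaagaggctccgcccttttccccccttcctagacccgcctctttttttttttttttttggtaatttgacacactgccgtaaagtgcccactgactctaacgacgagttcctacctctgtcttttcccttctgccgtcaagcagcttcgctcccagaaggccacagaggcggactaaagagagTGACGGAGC

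Of the 50 members 42 had such a window, and 5 of the 42 held the element (11.9%): Psmb5, Psmb6, Psmc6, Psmd12 and Psmd9. The same window held it in 11.5% of all 27025 genes with one, so the share among the members was near the background. The CCAAT box, a common promoter element, was found in 15 of 42 members (35.7%) and in 37.5% of all genes. The core of the interferon-stimulated response element was found in 3 of 42 members (7.14%), none of them an immunoproteasome gene, and in 3.46% of all genes. The interferon-gamma activated site TTCNNNGAA was found in 2 of 42 members (4.76%), Psmb8 and Psmg1, and in 8.13% of all genes. A match is a description of the letters and was not tested for binding.

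The 19S cap was summed over 17 genes. It had 1214, 1156 and 1225 CPM at 11.8 mM, 1333, 1288 and 1261 CPM at 20 mM, and 1337, 1292 and 1239 CPM at 35 mM. All 6 libraries at 20 and 35 mM were above the 3 controls. The mean was 1289 ± 49.2 CPM at 35 mM and 1294 ± 36.6 CPM at 20 mM, beside 1199 ± 37.0 CPM at 11.8 mM (SD, n = 3 each), a ratio of 1.08 for each. Of the 17 cap genes 17 had a positive fold change at 35 mM and 16 at 20 mM, with medians of 0.10 and 0.12; without 11.8 mM replicate 1 it was 12 of 17 in each.

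The 8 genes of the lid, which takes the ubiquitin chain off the substrate, were summed apart. They had 423, 422 and 407 CPM at 11.8 mM, 450.2, 460.1 and 463 CPM at 20 mM, and 451, 459 and 452 CPM at 35 mM. The controls were the 3 lowest libraries. The mean was 454 ± 4.39 CPM at 35 mM and 458 ± 6.73 CPM at 20 mM, beside 418 ± 9.41 CPM at 11.8 mM (SD, n = 3 each), a ratio of 1.09 at 35 mM and 1.10 at 20 mM. The ratio stayed between 1.07 and 1.09 at 35 mM with any 1 library left out, which reuses the same values and is no separate support. The lid was shown apart with earlier results of these data known. How often sums over other genes separate in this way was not counted. Each of the 8 genes had a positive fold change in both comparisons; without 11.8 mM replicate 1 it was 6 of 8 at 35 mM and 7 of 8 at 20 mM. No single lid gene passed the test, and the sums rested on 1396 to 1825 counts per library. Sums over the base of the cap overlapped between concentrations. Its 6 ATPases had 421, 459 and 489 CPM at 11.8 mM, 536, 458 and 450 CPM at 20 mM, and 497, 497 and 487 CPM at 35 mM. Its 3 other genes had 370, 275 and 330 CPM at 11.8 mM, 347, 370 and 348 CPM at 20 mM, and 389, 336 and 299 CPM at 35 mM.

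Psmd12, a scaffold subunit of the lid, had the largest positive fold change of the tested members at 35 mM. It had 32.0, 19.4 and 17.5 CPM at 11.8 mM, 24.9, 26.8 and 20.9 CPM at 20 mM, and 30.6, 30.8 and 35.5 CPM at 35 mM. The groups at 35 and 11.8 mM overlapped because 11.8 mM replicate 1 was as high as the 35 mM libraries, whereas the 35 mM libraries were above all at 20 mM. The log2 fold change was 0.49 ± 0.20 at 35 against 11.8 mM, with a p of 0.0179 and an adjusted p of 0.343 by edgeR's quasi-likelihood test. Without 11.8 mM replicate 1 it was 0.80 with an adjusted p of 0.0301, so that whether Psmd12 passed rested on that library.

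Psmd14 encodes the deubiquitinase of the lid. It had 38.1, 38.2 and 33.8 CPM at 11.8 mM, 43.4, 39.7 and 38.1 CPM at 20 mM, and 40.8, 48.5 and 42.0 CPM at 35 mM. The 35 mM libraries were above the controls, with a log2 fold change of 0.25 ± 0.15 and an adjusted p of 0.605 (edgeR's quasi-likelihood test). Psmd6 was named because it had the smallest p of the lid at 20 mM, a choice made after its values were seen. Its level was 66.4, 73.1 and 73.4 CPM at 11.8 mM, 89.9, 90.5 and 84.9 CPM at 20 mM, and 71.1, 80.1 and 76.7 CPM at 35 mM. The 20 mM libraries were the highest 3 of the 9, with a log2 fold change over 11.8 mM of 0.32 ± 0.13 and an adjusted p of 0.505 by edgeR's quasi-likelihood test. Psmd8, the most abundant lid gene at 108 CPM, had 0.01 ± 0.14 at 35 mM.

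In the base of the cap, 6 ATPases form the ring that unfolds the substrate, and all 6 had a positive fold change in both comparisons with 11.8 mM. Psmc4 had 48.0, 34.0 and 42.0 CPM at 11.8 mM, 38.2, 46.0 and 43.1 CPM at 20 mM, and 54.7, 49.1 and 53.4 CPM at 35 mM. The 35 mM libraries were above all 6 others. The log2 fold change was 0.35 ± 0.15 at 35 against 11.8 mM (p 0.0315, adjusted p 0.416) and 0.04 ± 0.16 at 20 against 11.8 mM, by edgeR's quasi-likelihood test. The other 5 ATPases lay between 0.04 and 0.11 at 35 mM, Psmc2, the most abundant at 156 CPM, at 0.11 ± 0.14 and Psmc3, the least at 26.2 CPM, at 0.05 ± 0.20. The scaffold subunit Psmd1 averaged 287 CPM, the highest of all members, and had 0.06 ± 0.14; Psmd2, the other large scaffold, averaged 9.71 CPM and had 0.17 ± 0.27. Psmd4, a ubiquitin receptor, had 42.1, 39.4 and 42.8 CPM at 11.8 mM, 43.7, 45.7 and 45.4 CPM at 20 mM, and 46.4, 41.5 and 45.2 CPM at 35 mM, with a log2 fold change of 0.12 ± 0.14 at 20 mM and 0.10 ± 0.14 at 35 mM.

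**Figure D3:**
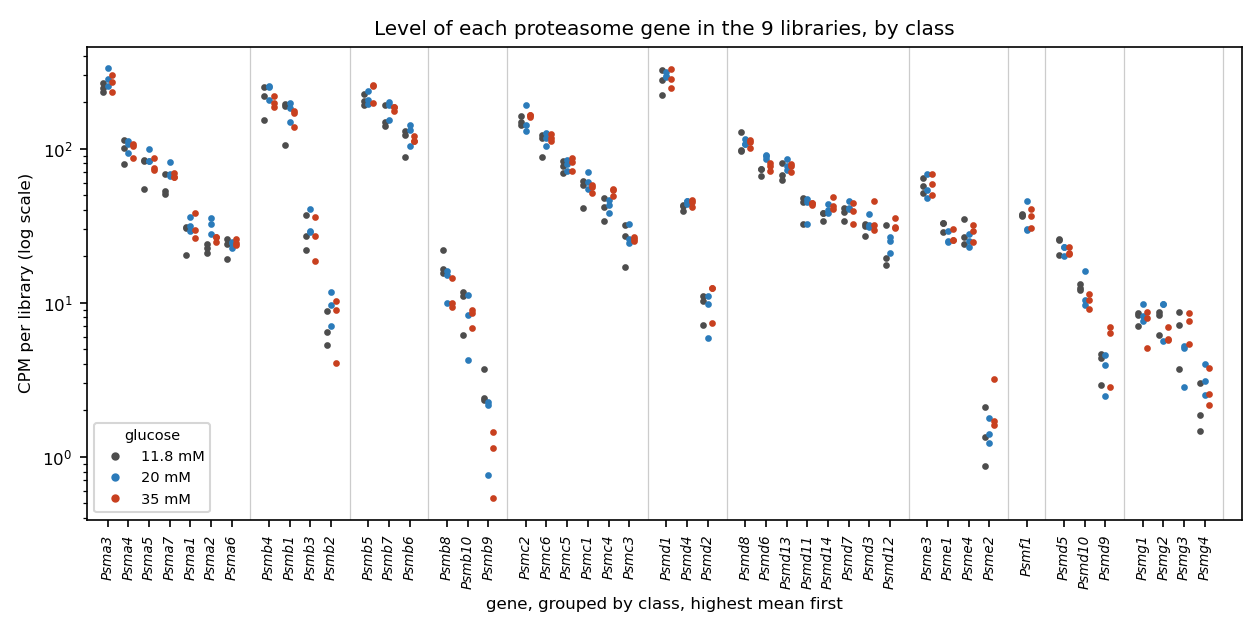
CPM of each proteasome gene in the 9 libraries on a log scale, grouped by class and ordered by mean, at 11.8 (grey), 20 (blue) and 35 mM glucose (red); values of 0 are not drawn, nor are Psma8, Psmb11, Psme2b and Psmc3ip. The alpha ring, for example, runs between a mean of 269 CPM for Psma3 and 23.8 CPM for Psma6.

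No immunoproteasome gene passed the test. Psmb8, Psmb9 and Psmb10 encode the inducible counterparts of Psmb5, Psmb6 and Psmb7. Their sum was 29.6, 36.8 and 25.1 CPM at 11.8 mM, 25.6, 27.8 and 16.4 CPM at 20 mM, and 23.6, 19.7 and 17.9 CPM at 35 mM. All 3 libraries at 35 mM were below all 3 at 11.8 mM, while those at 20 mM overlapped both. The mean was 20.4 ± 2.92 CPM at 35 mM and 23.2 ± 6.06 CPM at 20 mM, beside 30.5 ± 5.93 CPM at 11.8 mM (SD, n = 3 each), a ratio of 0.670 and 0.762. With any 1 library left out the ratio at 35 mM was between 0.615 and 0.747.

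Psmb8 was the most abundant of the 3. It had 15.5, 22.0 and 16.6 CPM at 11.8 mM, 15.1, 15.9 and 9.87 CPM at 20 mM, and 14.5, 9.29 and 9.94 CPM at 35 mM. The 35 mM libraries were below the controls, by a narrow gap between replicate 1 of each, and the 20 mM libraries overlapped both. These levels rest on 54, 32 and 35 counts at 35 mM and on 58, 95 and 57 counts at 11.8 mM. The log2 fold change at 35 against 11.8 mM was -0.68 ± 0.24 (95% interval -1.16 to -0.20), the most negative of the tested members, with a p of 0.0069 and an adjusted p of 0.242 by edgeR's quasi-likelihood test. Over the alternative settings it was -0.91 to -0.50 with adjusted p-values of 0.114 to 0.545. At 20 against 11.8 mM it was -0.41 ± 0.23 with an adjusted p of 0.688 by the same test.

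Psmb10 had 11.7, 11.1 and 6.12 CPM at 11.8 mM, 8.31, 11.1 and 4.23 CPM at 20 mM, and 8.59, 9.00 and 6.82 CPM at 35 mM. The groups overlapped, and the log2 fold change was -0.26 ± 0.30 at 35 mM and -0.29 ± 0.30 at 20 mM. Psmb9 was below the filter, with 2, 5 and 4 counts at 35 mM and 7, 3 and 8 counts at 20 mM, against 9, 16 and 8 counts at 11.8 mM. In CPM all its libraries at 20 and 35 mM were below the controls, at 20 mM only through library scaling. Replicate 3 had 8 counts at both 20 and 11.8 mM, which gave 2.26 and 2.33 CPM. Fitted without a filter, Psmb9 had a log2 fold change of -1.43 ± 0.61 at 35 against 11.8 mM. By edgeR's quasi-likelihood test its p was 0.0187 and its adjusted p 0.409.

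The immunoproteasome genes can also be given as a share of the counts of the 6 catalytic genes, which does not depend on library scaling. The share was 6.41%, 6.80% and 4.71% at 11.8 mM, 4.30%, 5.02% and 3.42% at 20 mM, and 4.57%, 3.45% and 3.12% at 35 mM. Exact 95% binomial intervals were between 2.41% and 7.90%. They leave out variation between samples and treat each count as independent, so duplicate reads would make them too narrow. Even so, the highest 35 mM library (3.68% to 5.60%) and the lowest control (3.79% to 5.79%) overlapped widely. The mean was 3.71% ± 0.761 at 35 mM and 4.25% ± 0.801 at 20 mM, beside 5.97% ± 1.11 at 11.8 mM (SD, n = 3 each). Pair by pair, Psmb8 made up 4.69% ± 1.87 of its counts with Psmb5 at 35 mM against 7.96% ± 0.903 at 11.8 mM. Psmb9 made up 0.907% ± 0.427 with Psmb6 at 35 mM against 2.43% ± 0.483 at 11.8 mM, and Psmb10 4.29% ± 0.637 with Psmb7 at 35 mM against 5.92% ± 2.48 at 11.8 mM.

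**Figure D4:**
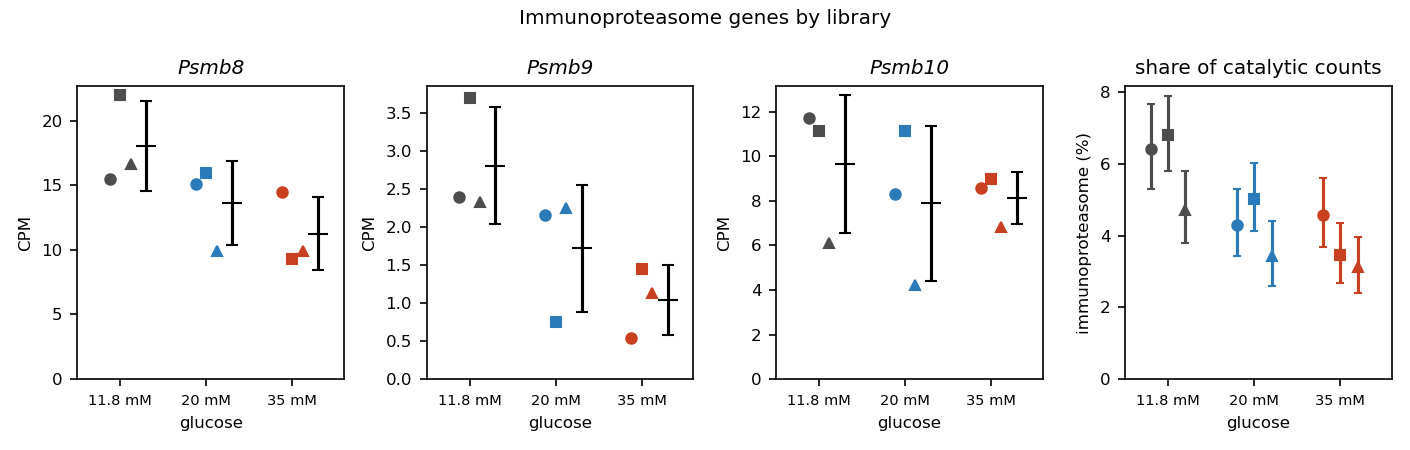
CPM of Psmb8, Psmb9 and Psmb10 by library with the mean ± SD (n = 3) in black, and at the right the immunoproteasome share of the counts of the 6 catalytic genes with exact 95% binomial intervals, at 11.8 (grey), 20 (blue) and 35 mM glucose (red); circles, squares and triangles are replicates 1, 2 and 3. The share is 3.12% to 4.57% at 35 mM and 4.71% to 6.80% at 11.8 mM.

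Leukocytes express these genes strongly, and in bulk islets fewer cells of a type and less RNA per cell cannot be told apart. Leukocyte markers were at 0.00664% to 0.0138% of gene counts at 35 mM and 0.00765% to 0.00842% at 20 mM, against 0.00937% to 0.0110% at 11.8 mM. The highest value at 35 mM rested on Cd74 in replicate 1, at 64.1 CPM beside 9.87 and 10.2 CPM in replicates 2 and 3. Cd74 alone of the tested markers had a positive log2 fold change at 35 mM, 0.68. Fcer1g and Lyz2 had -0.94 and -0.47 (adjusted p 0.138 and 0.302, edgeR's quasi-likelihood test), with all 35 mM libraries below the controls. Of the 10 markers 8 were tested and 0 passed, with a median log2 fold change of -0.37 at 35 mM and -0.34 at 20 mM, and Cd3e, the T-cell marker, had no count in any library. Their part in the Psmb8 levels was not tested. Fibroblast markers had a median of -0.53 and endothelial markers of -0.95 at 35 mM, with 0 genes called in either list, and acinar markers 0.07.

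Among the interferon and antigen presentation genes 10 were found, 6 were tested and 0 passed in any comparison, with a median log2 fold change of -0.15 at 35 mM and -0.07 at 20 mM. Irf1, a transcription factor that drives immunoproteasome genes, had the smallest p of the list, with 13.4, 14.2 and 8.24 CPM at 35 mM and 12.9, 10.9 and 12.7 CPM at 20 mM, against 16.0, 18.5 and 18.1 CPM at 11.8 mM. All 6 libraries at higher glucose were below the controls, with a log2 fold change of -0.55 at 35 mM and an adjusted p of 0.351 by edgeR's quasi-likelihood test. B2m and Tapbp, of the antigen-presenting complex, had -0.14 ± 0.25 and -0.05 ± 0.13. Tap1, the peptide transporter gene beside Psmb9, had 0.04 ± 0.58 on 3 to 17 counts per library, too few to tell a change from none. The 250-base windows of Tap1 and Psmb9 lie on opposite strands and share 225 bases, and their exons overlap.

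The activators open the core without a 19S cap. Psme1, encoding PA28 alpha, had 33.0, 32.6 and 28.8 CPM at 11.8 mM, 24.9, 24.8 and 29.3 CPM at 20 mM, and 25.5, 29.9 and 25.6 CPM at 35 mM. The groups overlapped by 1 library in each comparison, and the log2 fold change was -0.23 ± 0.17 at 35 mM and -0.26 ± 0.17 at 20 mM. Psme2, encoding PA28 beta and induced by interferon like Psme1, was below the filter at 0.874 to 3.19 CPM; fitted without a filter it had a log2 fold change of 0.55 ± 0.61 at 35 mM and 0.02 ± 0.65 at 20 mM. Psme3, the nuclear PA28 gamma, averaged 57.8 CPM and had 0.04 ± 0.16 at 35 mM; Psme4, PA200, averaged 27.4 CPM and had 0.01 ± 0.18. Psmf1, encoding the inhibitor PI31, had 30.3, 36.6 and 40.3 CPM at 35 mM and 29.6, 30.1 and 45.4 CPM at 20 mM, against 37.8, 37.3 and 36.7 CPM at 11.8 mM, with -0.06 ± 0.17 at 35 mM. Summed, the 4 activators were at 117 ± 12.4 CPM at 35 mM and 110 ± 13.7 CPM at 20 mM, beside 119 ± 12.9 CPM at 11.8 mM (SD, n = 3 each).

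The 7 assembly chaperones, which build the core and the cap without staying in them, were at 60.7 ± 3.70 CPM at 35 mM and 62.2 ± 8.63 CPM at 20 mM, beside 64.7 ± 8.06 CPM at 11.8 mM (SD, n = 3 each). Psmd10, a chaperone of the cap also known as gankyrin, had 12.0, 12.5 and 13.1 CPM at 11.8 mM, 16.0, 10.4 and 9.59 CPM at 20 mM, and 9.12, 10.5 and 11.4 CPM at 35 mM. The 35 mM libraries were below the controls, with a log2 fold change of -0.28 ± 0.24 and an adjusted p of 0.770 by edgeR's quasi-likelihood test. Psmd5 had -0.15 ± 0.18 and Psmd9 0.43 ± 0.37 at 35 mM. Of the 20S chaperones, Psmg1 had -0.14 ± 0.28, Psmg2 -0.33 ± 0.29 and Psmg4 0.38 ± 0.48 at 35 mM. Psmg3 had 3.73, 7.18 and 8.74 CPM at 11.8 mM, 5.23, 5.05 and 2.82 CPM at 20 mM, and 8.59, 7.55 and 5.40 CPM at 35 mM. Named after its values were seen, it had the largest fold change of the tested members between 35 and 20 mM, 0.71 ± 0.34, with an adjusted p of 0.932 by edgeR's quasi-likelihood test.

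Besides Psmb9 and Psme2, 4 members were below the filter. Psma8 and Psme2b had 1 count each in all. Psmb11, the thymus-specific catalytic subunit, had 2, 3 and 3 counts at 35 mM and 12, 4 and 7 counts at 20 mM, against 5, 6 and 18 counts at 11.8 mM, with a log2 fold change of -1.75 ± 0.66 at 35 against 11.8 mM (adjusted p 0.277, edgeR's quasi-likelihood test without a filter), and its 3′ end holds sequence found in 11 other genes. Psmc3ip had 1 to 11 counts per library.

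The genes that work with the proteasome were taken as 4 further lists. Of 6 other proteasome-associated genes, 6 of the NRF1 pathway, 4 tested ubiquitin genes and 9 for delivery of substrates, 0 passed in any comparison, and their median log2 fold changes were 0.15, 0.18, 0.05 and 0.20 at 35 mM and 0.10, 0.11, 0.22 and -0.10 at 20 mM. Vcp, the ATPase that extracts ubiquitinated proteins, had 118, 122 and 120.2 CPM at 35 mM against 101, 94.2 and 98.8 CPM at 11.8 mM. These libraries did not overlap, which held for 14.9% of all tested genes. The log2 fold change of Vcp was 0.29 with an adjusted p of 0.409 by edgeR's quasi-likelihood test. Rad23b, a shuttle that carries ubiquitinated proteins to the cap, had 126, 114 and 126 CPM at 35 mM against 102, 98.1 and 82.7 CPM at 11.8 mM. Its log2 fold change was 0.37 with an adjusted p of 0.259 by edgeR's quasi-likelihood test. Ubqln1, another shuttle, had 0.37 (adjusted p 0.351, same test). The cap subunits outside the Psm symbols Adrm1 and Sem1 had 0.40 and 0.38, and the ubiquitin-activating enzyme Uba1 had 0.35. Vcp, Rad23b and these genes were among the highest of the 4 lists at 35 mM, as was Ddi2 of the NRF1 pathway, with 0.33. Nfe2l1 itself had 0.09, and the lowest values in these lists at 35 mM were -0.22 for Nfe2l2, -0.14 for Zfand5 and -0.12 for Akirin2.

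Levels differed widely between genes of one complex, although its subunits are present in fixed numbers. Means over the 9 libraries ran between 23.8 and 269 CPM in the alpha ring, 8.02 and 216 CPM among the structural beta genes, 26.2 and 156 CPM among the ATPases, 9.71 and 287 CPM among the other base genes and 26.5 and 108 CPM in the lid. Counts of 3′ ends are not divided by length and are not calibrated between genes, so these levels do not rank the subunits. The last 500 bases of 14 members matched another gene over at least 45 bases at 95% identity, among them Psma3, Psma4, Psma5, Psmb3, Psmb5, Psmc1, Psmd2 and Psme1, mostly pseudogenes, and 12.6% to 22.6% of each library's total, summary lines included, was listed as not uniquely aligned. Exons of 12 members, including Psmb7, Psmb8, Psmb9, Psmd1 and Psme1, share positions with a gene of the opposite strand, and no source used here says whether counting used strand. The levels of these genes are therefore uncertain.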

How the data were processed

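Per the labels' protocols, libraries were made by CEL-Seq2 from purified RNA. The deposited values are read counts of genes in barcoded sub-libraries. The submitters' processing notes name cutadapt, TopHat, HTSeq and DESeq2 as tools of the authors and GRCm38.p4 as the build; no source used here states a version or whether counting used strand. The counts appear not to be collapsed by UMI, since the highest, 605402, exceeds the 4096 possible UMIs. The treatment text names a lower highest concentration than the titles and design text, whose 35 mM is used.

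The 27 sub-libraries were summed to 9 libraries through the deposited sample sheet. Of 22048 gene IDs 21858 matched a GENCODE M21 symbol. The 92 spike-ins and 5 summary lines stayed out of library sizes; the summary lines held 19.6% to 29.9% of a library's total. Columns of 2 further tables, 30 in all, match no sample's labels and were left out. Genes were filtered with filterByExpr, scaled by TMM and tested in edgeR 4.0.16 (R 4.3.3; glmQLFit, robust) with a mean per concentration, 6 residual degrees of freedom and Benjamini-Hochberg adjustment over 9739 genes; the code was tested on simulated data. CPM uses TMM-scaled library sizes, and sums over a class got no test. DESeq2 1.42.0, other scalings and filters, a replicate block, leaving out each library and 2 sub-libraries with a low insulin share were the alternatives. No libraries of a group held the same counts (chi-square per degree of freedom 3.39 to 15.6, which read duplication also raises).

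Members and gene lists were chosen with earlier results of these data known. Named with values are all catalytic, activator and inhibitor genes, in each other class the 2 with the smallest p at 35 mM and the most and least abundant, and members whose libraries did not overlap in both comparisons with 11.8 mM; others are said to be added. Paaf1 and Amy2b were not found among the gene names.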

Additional observations from a re-analysis of the deposited data

How the results depend on the processing

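Under 17 alternatives, 1565 fold changes of 31 named members were recomputed: 1564 kept their side of the threshold, 1 gained a call (Psmd12 at 35 against 11.8 mM) and 0 lost one. The number of members called was 0 in every comparison and alternative, except 0 to 1 at 35 against 11.8 mM when single libraries were left out. The median of the members was 0.02 to 0.12 at 35 mM and 0.06 to 0.13 at 20 mM over 11.8 mM; the low end of each was without 11.8 mM replicate 1. Counts over all genes moved more. At 35 against 11.8 mM, 84 genes passed; it was 148 with no filter and 41 (without 35 mM replicate 1) to 138 (without 11.8 mM replicate 1) with a library left out. At 20 against 11.8 mM, 18 passed; it was 51 with no filter, 57 with DESeq2, 11 with only the 2 concentrations compared, and 7 (without 20 mM replicate 1) to 35 (without 11.8 mM replicate 2) with a library left out. At 35 against 20 mM, 3 passed, and 1 to 7 with a library left out. For any difference 59 passed; it was 126 with no filter, 90 with DESeq2 and 34 to 75 with a library left out. The cause was not tested. Same-numbered libraries did not deviate together (r between -0.488 and 0.244), and 3 of 9 libraries correlated best with their own number. With 3 libraries per concentration this cannot show whether a number marks a shared mouse or day, and no label says so. With a replicate block 74, 13, 3 and 51 genes and 0 members passed. Without the 2 sub-libraries of low insulin share 68 genes and 0 members passed at 35 against 11.8 mM. Depth left 6 members untested, Psmb9 and Psme2 among them.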
